A study of Homo sapiens with 17 samples.

Results

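The replication licensing genes are here the subunits of the MCM helicase (MCM2, MCM3, MCM4, MCM5, MCM6 and MCM7) and genes that act on it. CDC6 and CDT1 load it onto origins, GMNN blocks loading, and MCM10 acts after loading. These 10 genes were chosen by name, and all 10 were among the 9016 genes tested at 36 h and the 10896 genes tested at 72 h. Ribosome footprints, mRNA and their ratio were measured for each of them in 17 libraries from HEK293 cells, a human embryonic kidney line. All cells were electroporated with a ribonucleoprotein (RNP) of the guide RNA sgIntron, which is directed at an intron of JAK2, and either Cas9, which cuts DNA, or dCas9, its catalytically dead form, which binds without cutting and is the control. The labels give 300 pmol of Cas9 and 300 pmol of guide. At 36 h after electroporation there were 3 Cas9 and 2 dCas9 mRNA libraries and 2 footprint libraries per nuclease, from cells that received a synthetic guide, and at 72 h there were 2 libraries of each kind per nuclease, from cells that received a guide transcribed in vitro. According to the methods each replicate was pooled from several small electroporations into one plate, and the share of cells that were cut was not analysed here. Time points also differed in aligner and annotation, so each was normalized and tested on its own.

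Before S phase, origins of replication are licensed when the origin recognition complex, CDC6 and CDT1 load MCM2 to MCM7 as a ring-shaped helicase that holds equal copies of the 6 subunits. Geminin (GMNN) binds CDT1 and blocks loading in S and G2 phase, CDT1 is also degraded in S phase, and MCM10 acts when the loaded helicase is activated. Transcription of these genes is driven in G1 by E2F factors, and HEK293 cells carry an adenoviral protein that binds RB proteins and thereby releases E2F. In RNA from a whole culture, a changed share of cells in G1 or S phase and a changed level per cell cannot be told apart.

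Promoters of 4 of the genes that hold E2F-type letters are shown. Each is the RefSeq sequence of GRCh38.p14 from 250 bases before the start site through the first 30 transcribed bases, 280 bases in all, on the strand of the gene, and capitals mark any match to TTTCCCGC, TTTGGCGC, TTTCGCGC or TTTGCCGC on either strand, overlapping matches being joined. The first belongs to MCM2 (chr3:127598161-127598440, plus strand), the second to MCM6 (chr2:135876414-135876693, minus strand), the third to CDC6 (chr17:40287629-40287908, plus strand) and the last to CDT1 (chr16:88803539-88803818, plus strand).
MCM2: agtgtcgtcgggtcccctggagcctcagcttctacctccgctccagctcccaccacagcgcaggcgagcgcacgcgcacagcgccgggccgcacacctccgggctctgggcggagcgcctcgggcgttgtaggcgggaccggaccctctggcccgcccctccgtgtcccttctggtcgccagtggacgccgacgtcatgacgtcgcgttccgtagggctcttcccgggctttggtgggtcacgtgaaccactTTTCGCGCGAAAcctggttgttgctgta
MCM6: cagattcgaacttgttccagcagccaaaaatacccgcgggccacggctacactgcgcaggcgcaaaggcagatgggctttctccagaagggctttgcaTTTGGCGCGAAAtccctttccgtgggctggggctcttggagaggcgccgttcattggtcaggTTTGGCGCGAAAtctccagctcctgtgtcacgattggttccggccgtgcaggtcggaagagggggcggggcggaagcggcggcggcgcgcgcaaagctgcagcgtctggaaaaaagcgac
CDC6: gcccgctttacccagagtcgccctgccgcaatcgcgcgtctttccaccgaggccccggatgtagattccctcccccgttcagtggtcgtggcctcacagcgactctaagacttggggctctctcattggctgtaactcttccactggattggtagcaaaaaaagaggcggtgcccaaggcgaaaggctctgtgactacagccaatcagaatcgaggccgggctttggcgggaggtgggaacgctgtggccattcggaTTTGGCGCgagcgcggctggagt
CDT1: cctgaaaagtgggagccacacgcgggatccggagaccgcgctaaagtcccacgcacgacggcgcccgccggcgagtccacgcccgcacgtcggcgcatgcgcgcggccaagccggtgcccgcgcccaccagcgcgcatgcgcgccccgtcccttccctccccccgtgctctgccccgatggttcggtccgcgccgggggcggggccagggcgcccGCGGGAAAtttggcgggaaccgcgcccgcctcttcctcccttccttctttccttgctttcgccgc

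Of the 9 genes looked for, 8 had a promoter in the set used, and MCM5 had none. Of the 8, 7 held at least 1 of the 4 motifs at 1 or more of their start sites. Counted by start site, 7 of 11 held one. Over all 35116 promoters of this length, 3.14% held one. GC content was 57.1 to 74.3% in the windows of the members, beside a median of 58.2% over all promoters. Its part in the share with a match was not tested. MCM4 was not looked for. Positions of the first base of a match are counted from 0 at the first transcribed base. MCM6 had 4 matches, which overlap in 2 stretches, at positions -152 and -90. MCM2 had 2 that overlap from position 2 on, in a stretch that reads the same on both strands. MCM3 and MCM7 had 2 matches each, with 1 of them close to the start site (positions -4 and -9). CDC6 had its match at position 7 and CDT1 at position -35, and GMNN had 1 match, at position -80 of the second of its 2 start sites. MCM10 had none of these letters in its window. A match is a string of letters, and binding was not measured.

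The footprint libraries held between 689636 counts (36 h dCas9 e) and 8864461 counts (72 h dCas9 f) on the transcripts kept, 1 per gene, and the mRNA libraries between 25095505 and 42825667. At 36 h the footprint counts of single licensing genes went down to 38 (GMNN, Cas9 a) and 39 (MCM10, dCas9 e), so that these genes were measured less precisely than MCM2 or MCM7. Replicates of a group differed beyond counting noise in every pair, with a chi-square per gene of 2.98 to 46.2, and the highest value was that of the 72 h dCas9 mRNA libraries a and b. Of the HEK293 markers fixed for a check of the line, VIM reached 599 to 1069 CPM in mRNA and KRT18 51.1 to 62.0, whereas PAX2 stayed at or below 0.320 and LHX1, NEFM and NES lay between 1.87 and 14.5. NEFM mRNA was lower with Cas9 at 72 h, 2.65 and 2.73 against 4.50 and 5.43 CPM (adjusted P = 0.071 by edgeR), and its part in the results at 72 h was not tested. Markers of K562, the other line used in the study, were at most 0.769 CPM in any mRNA library.

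MCM7 stood above the other licensing genes in level per length. Levels are given as CPM, the counts scaled to a common library size (the sum of tested genes, adjusted by TMM), and, to compare genes, as CPM per 1000 codons of the coding part that was counted. In mRNA MCM7 averaged 1406 CPM per 1000 codons over the 36 h libraries and 1268 over the 72 h libraries. MCM2 (695 at 36 h, 645 at 72 h) and MCM4 (691 and 725) followed, then MCM3 (643 and 576). At the other end MCM10 averaged 181 and 165. MCM2 and MCM4 overlapped in range at 36 h and were apart at 72 h, with MCM4 higher. MCM6, CDC6, MCM5, GMNN and CDT1, in that order of mean mRNA density at 36 h, each overlapped with the next.

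Footprint density had the same first gene and the same last gene. MCM7 averaged 1253 footprint CPM per 1000 codons at 36 h and 1433 at 72 h, and MCM10 99.2 and 96.8. CDC6 came next to last with 217 and 232, apart from both neighbours at 72 h but overlapping GMNN at 36 h. CDT1, ninth by mRNA at both times, was sixth by footprints at 36 h (510) and eighth at 72 h (437). At 72 h MCM5, MCM6, GMNN and CDT1 followed each other in that order, each overlapping with the next in range.

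**Figure D1:**
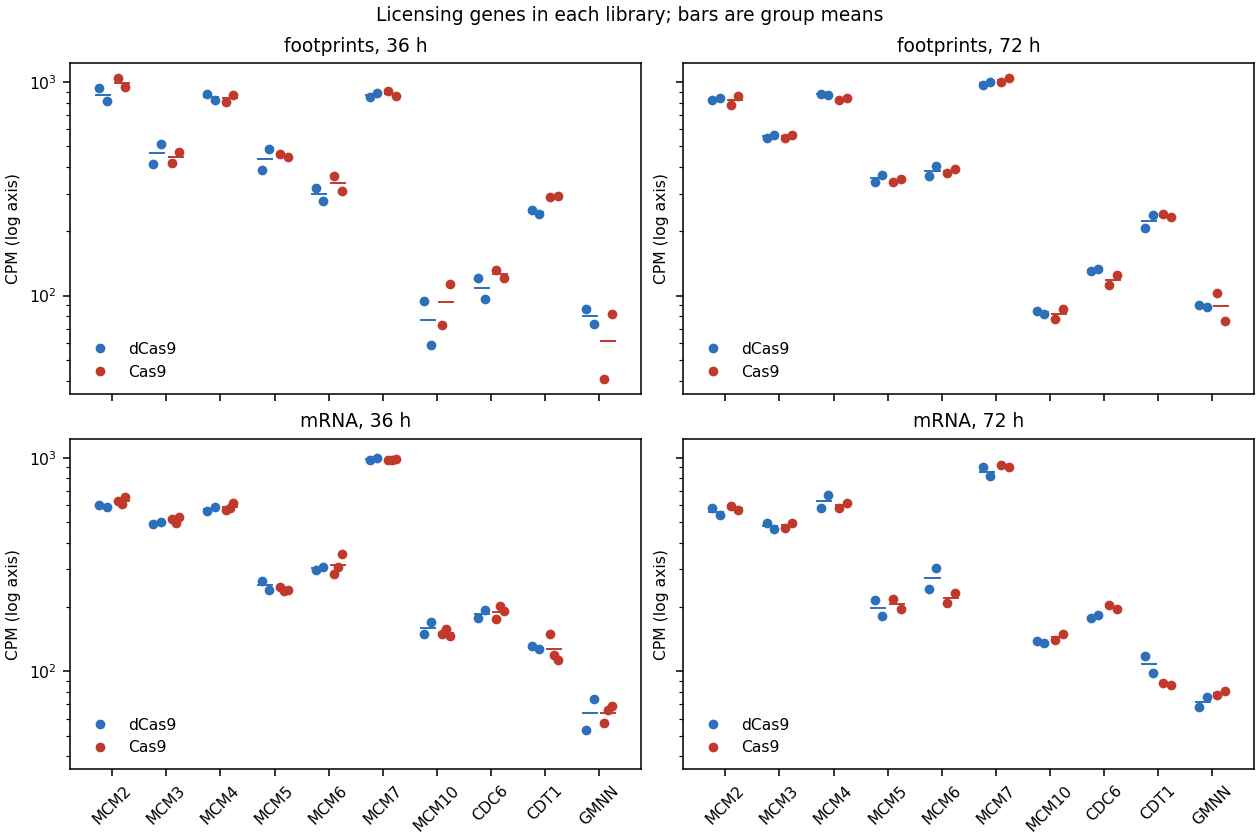
CPM (log axis) of the 10 licensing genes in each of the 17 libraries, footprints above and mRNA below, 36 h left and 72 h right. Points are libraries, bars are group means, blue is dCas9 and red is Cas9; points of both colours lie within a narrow band for most genes, and the 72 h mRNA of MCM6 and CDT1 lies lower with Cas9.

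The 6 subunits of the helicase were not read in equal amounts. In mRNA MCM7 made up 32.6 to 34.5% of the summed density of MCM2 to MCM7 at 36 h and 31.2 to 34.6% at 72 h, and in footprints 24.8 to 26.2% and 27.9 to 29.3%. MCM6 had the smallest share in every footprint library, and MCM5 or MCM6 had it in every mRNA library. MCM6 took 7.17 to 8.96% of footprints and 8.62 to 10.2% of mRNA at 36 h, and MCM5 took 11.3 to 14.0% and 7.80 to 9.02%. MCM5 was thus below MCM6 in all 5 mRNA libraries at 36 h and above it in all 4 footprint libraries. At 72 h MCM5 again lay above MCM6 in all 4 footprint libraries, by less than 1 percentage point, and in mRNA it lay above MCM6 in 1 of 4 libraries.

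The highest over the lowest subunit density was 3.19 ± 0.33 (SD, n = 4) in footprints and 4.08 ± 0.20 (SD, n = 5) in mRNA at 36 h. At 72 h it was 2.997 ± 0.099 (SD, n = 4) and 4.67 ± 0.33 (SD, n = 4). Each of these SDs is over the libraries of both nucleases together. In each time point the footprint libraries all lay below the mRNA libraries, with footprint values up to 3.66 at 36 h and 3.07 at 72 h against mRNA values from 3.76 and 4.29.  Length bias and alignment of the 2 library types were not examined, and shares compare different genes, whose recovery can differ.

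**Figure D2:**
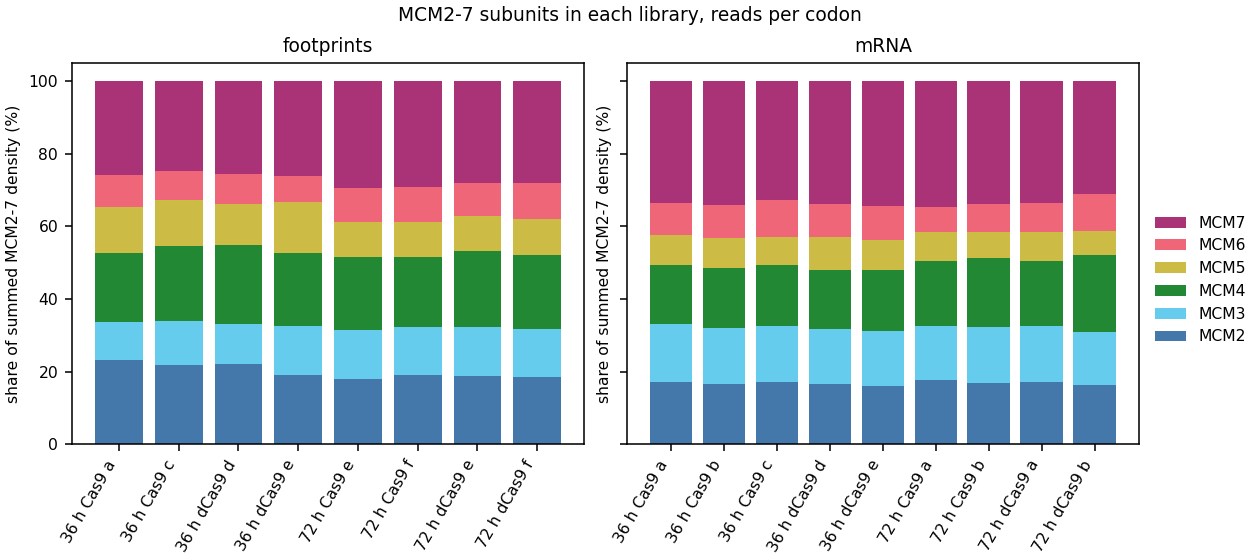
Share of each MCM2-7 subunit (%) in the summed density of the 6, as reads per codon, with 1 stacked bar per library, footprints left and mRNA right. MCM7 is the largest segment in every bar, from 24.8% to 34.6%.

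Between Cas9 and dCas9 none of the 24 subunit shares (6 subunits, 2 library types, 2 time points) differed in an exact two-sided permutation test, but the test could not have shown one. It cannot give a P below 0.333 with 2 libraries against 2 or below 0.2 with 3 against 2. Adjusted over the 24 tests by Benjamini-Hochberg, the smallest exact P was 0.941. The changes were at most 1.94 percentage points. The share of MCM2 in footprints at 36 h was 22.5 ± 1.1% (SD, n = 2) after Cas9 against 20.5 ± 2.2% (SD, n = 2) after dCas9. In mRNA at 72 h the share of MCM6 was 7.22 ± 0.55% (SD, n = 2) with Cas9 against 9.01 ± 1.5% (SD, n = 2), and that of MCM7 34.2 ± 0.57% (SD, n = 2) against 32.4 ± 1.7% (SD, n = 2). The summed CPM of the 6 subunits stayed between 3780 and 4053 in the 8 footprint libraries and between 2972 and 3380 in the 9 mRNA libraries.

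At 36 h no licensing gene passed the test between Cas9 and dCas9 in footprints, mRNA or their ratio. In footprints 0 of the 10 passed edgeR's quasi-likelihood test at a false discovery rate of 0.1, and 0% of all tested genes did. At an unadjusted P under 0.05 there were also 0 of 10, against 2.09% of all genes, and DESeq2 called 0 of 10. The groups did not overlap for 3 of 10 members, MCM2, CDC6 and CDT1, and for 30.5% of all genes, a share close to that of the members. Their median log2 fold change was 0.11 (range -0.36 to 0.26), beside a median of 0.01 over all genes.

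Among the subunits of the helicase, MCM2 (chr3:127598410-127622436, plus strand in GENCODE 44) had 1039 and 948 footprint CPM with Cas9 and 934 and 812 with dCas9. All Cas9 values lay above the dCas9 values, with a log2 fold change of 0.18 (SE 0.14, 95% interval -0.12 to 0.48). MCM7 (chr7:100092233-100101940, minus strand), which hosts the microRNAs MIR25, MIR93 and MIR106B and overlaps AP4M1 on the opposite strand, had 911 and 856 with Cas9 and 850 and 887 with dCas9. Its groups overlapped, and its interval for the log2 fold change was -0.27 to 0.32. MCM3, MCM4, MCM5 and MCM6 also overlapped, with log2 fold changes from -0.05 (MCM3) to 0.16 (MCM6).

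The loaders had log2 fold changes above 0 in footprints at 36 h, within the error of the measurement. CDT1 (chr16:88803789-88809258, plus strand) had 289 and 292 footprint CPM with Cas9 and 250 and 241 with dCas9, and its log2 fold change was 0.24, with an SE of 0.19 and an adjusted P = 0.999 in edgeR's test. CDC6 (chr17:40287879-40304657, plus strand) had 131 and 122 with Cas9 and 120 and 96.2 with dCas9, a log2 fold change of 0.20 (SE 0.27, 95% interval -0.36 to 0.76). For both genes the Cas9 values lay above the dCas9 values, for CDC6 narrowly. Groups were apart, in either direction, for 30.5% of all genes in this comparison.

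GMNN, the inhibitor of loading (chr6:24774931-24786099, plus strand), had 40.8 and 82.3 footprint CPM with Cas9 and 87.0 and 73.7 with dCas9. One Cas9 library was low and the other lay between the dCas9 values, with a log2 fold change of -0.36 (SE 0.36, 95% interval -1.11 to 0.40). MCM10 (chr10:13161558-13211110, plus strand) had 73.1 and 113 with Cas9 and 94.3 and 58.6 with dCas9. These groups overlapped, and the 95% interval of the log2 fold change ran from -0.44 to 0.95, so that even sizeable changes of MCM10 were not detectable at this depth.

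In mRNA at 36 h the 95% intervals of the licensing genes were narrower than in footprints. Of the 10 genes 0 passed the test, beside 0.0222% of all genes, and 0 had an unadjusted P under 0.05, beside 4.68%. DESeq2 also called 0. Log2 fold changes ran from -0.09 (MCM10) to 0.09 (MCM2), with a median of 0.02 beside 0.00 over all genes. Every 95% interval lay between -0.28 and 0.27. These intervals use a spread shared across genes (27050 degrees of freedom), so they hardly reflect each gene's own replicates. GMNN mRNA was 52.9 and 74.3 CPM in the dCas9 libraries. Its log2 fold change was -0.22 without dCas9 d and 0.27 without dCas9 e. Only MCM2 had groups that did not overlap, 1 of 10 members beside 16.9% of all genes: its mRNA was 627, 604 and 657 CPM with Cas9 and 600 and 585 with dCas9. In translational efficiency, the change in footprints minus the change in mRNA on the log2 scale, 0 of 10 passed, beside 0% of all genes, and 0 had an unadjusted P under 0.05, beside 6.3%. DESeq2 called 0 of them there too. The log2 values ran from -0.33 (GMNN) to 0.33 (MCM10).

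At 72 h, mRNA of MCM6 and CDT1 was lower with Cas9, at 0.807 and 0.805 times the dCas9 level, but neither passed the correction over all genes. MCM6 (chr2:135839626-135876443, minus strand) had 209 and 233 mRNA CPM with Cas9 and 244 and 304 with dCas9. All Cas9 values lay below the dCas9 values, and the log2 fold change was -0.31 (SE 0.14, 95% interval -0.61 to -0.01, unadjusted P = 0.042 and adjusted P = 0.321 in edgeR's test). CDT1 had 88.4 and 86.1 mRNA CPM with Cas9 and 118 and 98.6 with dCas9. Its groups did not overlap either, and its log2 fold change was -0.31 (SE 0.13, 95% interval -0.60 to -0.02, unadjusted P = 0.036 and adjusted P = 0.308 in edgeR's test).

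Of the 10 licensing genes 0 passed the test for mRNA at 72 h, beside 2.69% of all genes, and DESeq2 called 0. At an unadjusted P under 0.05 there were 2 of 10, MCM6 and CDT1, beside 14.8% of all genes. The groups did not overlap for 6 of 10 members, beside 49.6% of all genes. These were MCM6 and CDT1, lower with Cas9, and MCM7, MCM10, CDC6 and GMNN, higher with Cas9 in all 4 pairs of libraries. CDC6 had 205 and 196 mRNA CPM with Cas9 against 177 and 183, a log2 fold change of 0.15 (SE 0.12). GMNN had 77.8 and 80.8 against 68.1 and 75.8, a log2 fold change of 0.14 (SE 0.13). The median over the 10 genes was 0.06, beside 0.02 over all genes.

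The calls for mRNA at 72 h depended on a correction for GC content and on single dCas9 libraries. After a correction for coding GC content, MCM6 changed by -0.35 (SE 0.08, adjusted P = 0.026 in edgeR's test) and CDT1 by -0.24 (SE 0.07, adjusted P = 0.049), and both passed. Coding GC content was 46.2% in MCM6 and 68.3% in CDT1, the highest of the 10 genes. With it 22.2% of all genes passed, so that 2 of 10 members is close to the background. The same correction turned GMNN from 0.14 to -0.07 and lowered CDC6 from 0.15 to 0.08. With the replicate letter as a block as well, 5 of 10 members passed, beside 28.9% of all genes.

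The size of both changes rested on which dCas9 mRNA library was kept. Without library a MCM6 changed by -0.46 (adjusted P = 0.073 by edgeR) and passed, beside 4.63% of all genes, and CDT1 changed by -0.18 (adjusted P = 0.380 by edgeR). Without library b it was CDT1 that passed, with -0.43 (adjusted P = 0.030 by edgeR), beside 26% of all genes, and MCM6 changed by -0.14 (adjusted P = 0.412 by edgeR).

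No licensing gene passed for footprints at 72 h, and their log2 fold changes were small. Of the 10 genes 0 passed, beside 0.0367% of all genes, 0 had an unadjusted P under 0.05, beside 3.83%, and DESeq2 called 0. The log2 fold changes lay between -0.15 (CDC6) and 0.08 (CDT1), with a median of -0.02 beside 0.00 over all genes, and every 95% interval lay between -0.34 and 0.25. MCM6 had 374 and 393 footprint CPM with Cas9 and 364 and 404 with dCas9, and CDT1 241 and 232 against 208 and 240. For neither gene were the groups apart, in contrast to their mRNA. Footprints of 2 of 10 members did not overlap between groups, beside 31.7% of all genes: CDC6 (112 and 125 CPM with Cas9, 131 and 134 with dCas9) and MCM4 (827 and 840 against 877 and 874), both lower with Cas9.

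Translational efficiency at 72 h was called for 0 of 10 licensing genes, beside 0.716% of all genes, and for 0 by DESeq2. At an unadjusted P under 0.05 there was 1 of 10, CDT1, beside 11.2% of all genes. CDT1 had a log2 value of 0.39 (SE 0.16, 95% interval 0.05 to 0.73, adjusted P = 0.370 in edgeR's test), which was 0.25 without dCas9 mRNA library a (adjusted P = 0.501 by edgeR). Without library b it was 0.57 (adjusted P = 0.028 by edgeR) and passed, beside 9.77% of all genes. MCM6 had 0.31 (SE 0.16, 95% interval -0.02 to 0.65), which was 0.19 without library b, and CDC6 -0.30 (SE 0.14, 95% interval -0.61 to 0.00). The mRNA of CDC6 was higher and its footprints were lower with Cas9 in all 4 pairs of libraries. The other 7 genes had values below 0, down to -0.15 (GMNN, which was 0.07 with GC correction).

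**Figure D3:**
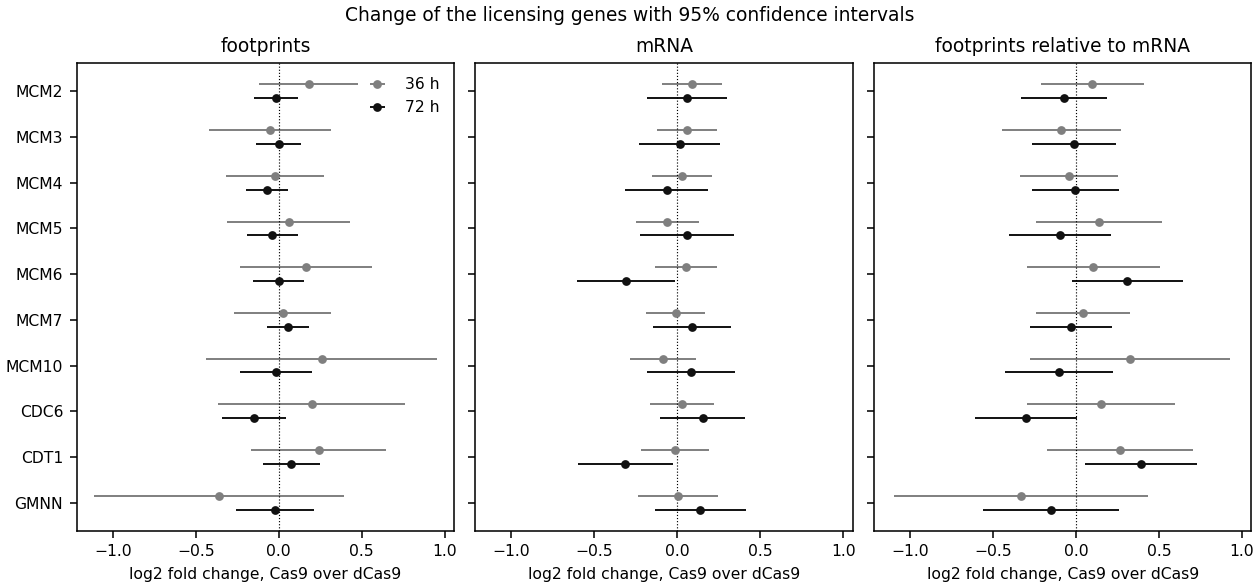
Log2 fold change of Cas9 over dCas9 for the 10 licensing genes in footprints, mRNA and footprints relative to mRNA, with 95% confidence intervals from edgeR's fit, 36 h in grey and 72 h in black. Intervals exclude 0 for MCM6 and CDT1 in mRNA at 72 h and for CDT1 in footprints relative to mRNA at 72 h, before any correction for the number of genes tested.

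On average over the 36 h lysates, CDT1 had the most footprints per mRNA of the licensing genes and MCM10 the fewest. The ratio of footprint CPM to mRNA CPM was taken within each of the 4 lysates that gave both libraries at 36 h. A shared letter was taken there as a shared lysate, which the libraries themselves did not bear out. At 72 h, where letters do not join the library types, the ratio was taken from group means. Each SD of a ratio at 36 h is over the lysates of both nucleases together. Over all tested genes the median ratio was 0.849 to 0.885. In single lysates CDT1 had 1.93 and 2.58 with Cas9 and 1.91 and 1.90 with dCas9. CDT1 had a ratio of 2.08 ± 0.33 (SD, n = 4) at 36 h and of 2.71 with Cas9 and 2.06 with dCas9 at 72 h, which placed it between percentiles 85.3 and 93.9 of the tested genes. MCM5 followed with 1.79 ± 0.23 (SD, n = 4), then MCM2 with 1.51 ± 0.12 (SD, n = 4) and MCM4 with 1.45 ± 0.07 (SD, n = 4).

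MCM10 and CDC6 had the fewest footprints per mRNA. MCM10 had 0.561 ± 0.186 (SD, n = 4) at 36 h and 0.567 and 0.611 at 72 h, and CDC6 0.639 ± 0.106 (SD, n = 4), then 0.592 with Cas9 and 0.734 with dCas9. Their highest lysate values, 0.779 and 0.750, lay below the lowest values of CDT1 (1.90), MCM5 (1.46), MCM2 (1.39) and MCM4 (1.40). GMNN varied most between lysates, from 0.712 to 1.65.

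MCM7 and MCM3 sat near the median of all genes at 36 h, and MCM6 between percentiles 50.4 and 71.3. Each of these genes sat higher at 72 h. MCM6 had 1.03 ± 0.18 (SD, n = 4) at 36 h, then 1.74 with Cas9 and 1.40 with dCas9. MCM7 had 0.891 ± 0.033 (SD, n = 4), then 1.12 and 1.14, and MCM3 0.894 ± 0.099 (SD, n = 4), then 1.15 and 1.16. The time points were normalized separately, with another aligner, annotation and guide, so these differences between time points were not tested. For MCM3 the kept transcript also differed between them.

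Across the 10 genes, the ratio rose with coding GC content, with Spearman's rho of 0.55 to 0.66 over the 4 combinations of nuclease and time point. Over all tested genes rho was 0.29 to 0.42. Genes are not independent replicates and share their libraries, so this is a description.

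**Figure D4:**
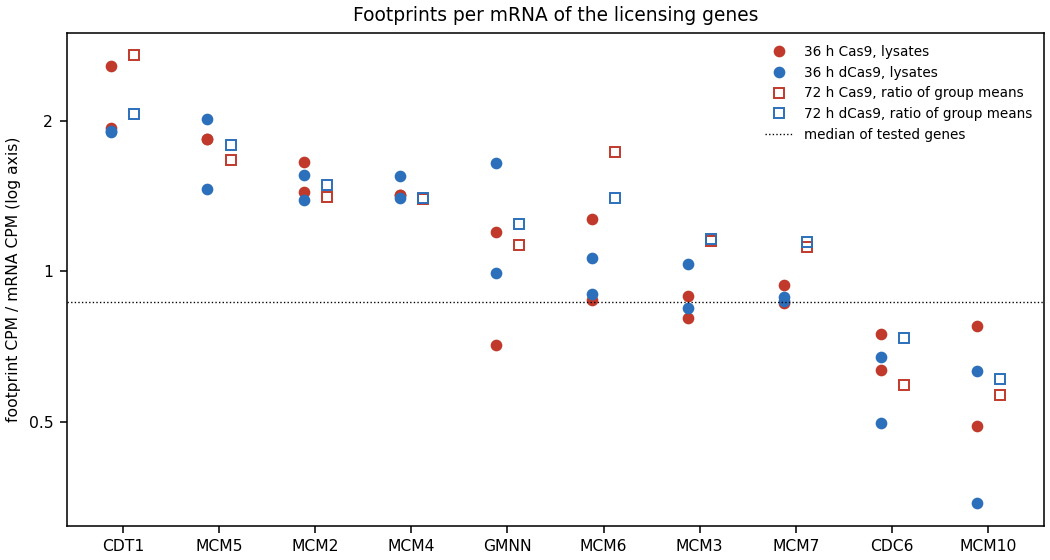
Footprint CPM over mRNA CPM (log axis) for the 10 licensing genes, ordered by the mean of the 36 h lysates; filled circles are the 4 lysates of 36 h, open squares the ratios of group means at 72 h, red Cas9 and blue dCas9, and the dotted line is the median of tested genes. All points of CDT1 lie at 1.90 or above and all points of MCM10 and CDC6 at 0.779 or below, with the other genes mostly between them and GMNN spread from 0.712 to 1.65.

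Among other replication genes, those that passed the test did so at 72 h, in mRNA or in translational efficiency. Of 94 genes in 8 further lists, 93 were tested, and 0 passed in footprints, mRNA or translational efficiency at 36 h or in footprints at 72 h. The 7 genes of the origin recognition complex and MCMBP, which load or bind MCM proteins, had log2 fold changes above 0 for mRNA at 72 h in 7 of 7, with a median of 0.26 beside 0.02 over all genes, and 0 passed. Among the 14 origin firing factors the median was 0.14, with 10 above 0 and 0 passing, and among the 13 E2F and RB family genes it was 0.03. Medians of the 8 lists ran from 0.01 to 0.26 in this comparison, the highest being that of the origin recognition complex and MCMBP. For the origin recognition complex and MCMBP, footprints at 72 h were above 0 in 1 of 7 genes, with a median of -0.10. Translational efficiency of these genes at 72 h was above 0 in 0 of 7, with a median of -0.35. Genes of a list share the same libraries, and the share of all genes above 0 was not counted. These counts are therefore descriptions, and their dependence on GC correction or on single libraries is not reported.

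For mRNA at 72 h 5 of the 93 genes passed (5.38%, beside 2.69% of all genes), and all 5 fell, as did 290 of the 293 genes that passed in all. That direction over all genes depended on the processing. With GC correction 1017 genes rose and 1399 fell. For the 5 genes named next, results under the alternatives are not reported. TIMELESS, a fork protection factor, had 71.2 and 93.4 mRNA CPM with Cas9 and 129 and 145 with dCas9 (log2 fold change -0.73, adjusted P = 0.045 by edgeR). RPA1, the large subunit of the single-stranded DNA binding complex, had 78.0 and 111 against 157 and 206 (-0.94, adjusted P = 0.032 by edgeR). Both are among 23 genes of the replication fork, of which the median was 0.10.

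TYMS, which makes thymidylate, fell by 0.60 on the log2 scale (adjusted P = 0.077 by edgeR). Of the G2/M genes, the proliferation antigen MKI67 fell by 0.67 (adjusted P = 0.025 by edgeR) and the mitotic kinase PLK1 by 0.52 (adjusted P = 0.073 by edgeR). In translational efficiency at 72 h 2 genes of these lists passed (2.15%, beside 0.716% of all genes), RPA1 with 0.91 (adjusted P = 0.087 by edgeR) and MKI67 with 0.65 (adjusted P = 0.041 by edgeR). Their footprints were alike in both groups, 304 and 280 CPM against 304 and 292 for RPA1, and 580 and 604 against 604 and 602 for MKI67.

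From library to library the licensing genes varied in different ways. With log2 CPM centred within library type and time point, the correlation of each gene with the mean of the other 9 over 17 libraries ran from -0.49 (MCM5) to 0.61 (MCM10). Of 3922 other genes, the 5 most like the mean of the members were TSR1 (r = 0.93), LASP1 (0.86), CDCA2 (0.85), SF3A3 (0.85) and CNIH1 (0.85). These libraries differ in depth and MCM10 alone had r = 0.86 with that mean, so the order is a description of this set of libraries.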

How the data were processed

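Ribosome footprints and mRNA of HEK293 cells were analysed in 17 libraries, grouped by nuclease, time point and library type from the labels. The nuclease of the 72 h Cas9 footprint libraries, whose titles write rcas9, came from their treatment label, and for Cas9 b at 36 h only mRNA was used. The authors aligned reads with hisat2 to GENCODE 22 (36 h) or with tophat to GENCODE 25 (72 h), and deposited raw counts per transcript from fp-count, with the number of codons over which each was counted. Transcripts of a gene can share reads, which then enter the count of each.

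Transcripts were matched by identifier to GENCODE 44 on GRCh38 (25338 of 26679 at 36 h, 94878 of 98334 at 72 h), leaving out 3.74% and 4.22% of counts, and for each gene the transcript with the highest summed count of the time point was kept. Genes with mean counts under 20 in either library type were not tested. Library totals run from 689636 to 42825667 counts and limit the precision of footprints at 36 h most. Each library type was fitted alone by edgeR 4.0.16 (R 4.3.3) with TMM, its quasi-likelihood test and Benjamini-Hochberg adjustment over all tested genes at a false discovery rate of 0.1. Translational efficiency was the interaction of nuclease and library type in a fit of both. That fit uses 1 spread for both library types, which differ in spread, so its errors are less certain for footprints. At 36 h the methods state that lysates were divided between both kinds of library, and letters join them there, with correlations of their deviations of 0.062 (Cas9) and 0.0101 (dCas9). Shares of MCM2 to MCM7 were tested by exact permutation. The fits were tested on simulated data, with planted changes in footprints larger than any change of a licensing gene reported here. That test therefore does not show whether changes of the size seen in these genes would be found. Replicates are separately electroporated cultures by the methods.

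Alternatives were a joint fit or limma 3.58.1 (voom), DESeq2 1.42.0, RLE size factors, no count minimum, a GC correction, replicate blocks and leaving out each library. Members and gene lists were chosen with earlier results of these data known. All 10 members are named in every comparison. Of the other lists, called genes are named, at most 4 per list and direction, and of all genes the 5 most correlated with the members (mean footprint count of at least 100 at each time point, log2 CPM with a prior count of 2). No table of protein sequences was used.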

Additional observations from a re-analysis of the deposited data

Results flagged for a closer look

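Footprints of CDC6 moved in opposite directions at both time points. At 36 h every Cas9 library lay above every dCas9 library, with a log2 fold change of 0.20 (SE 0.27), and at 72 h every Cas9 library lay below every dCas9 library, with a log2 fold change of -0.15 (SE 0.09). Groups were apart, in either direction, for 30.5% of all genes at 36 h and for 31.7% at 72 h. Neither change passed edgeR's test, and the difference between the time points was not tested.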

How the results depend on the processing

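Licensing genes were called in few alternatives. Of 720 log2 fold changes of single members under alternatives, 75 had another sign than the value reported and 10 were called, 0 of them with another sign than reported. For mRNA at 72 h the members called were 2 with GC correction (MCM6 and CDT1), beside 22.2% of all genes, and 5 with the replicate block and GC correction together (also MCM2, MCM5 and MCM7, by 0.16, 0.16 and 0.18 on the log2 scale), beside 28.9%. Without each library in turn 0 to 1 members were called for mRNA (MCM6 without dCas9 a, CDT1 without dCas9 b) and 0 to 1 for translational efficiency at 72 h (CDT1 without mRNA dCas9 b).

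Counts over all tested genes moved far more. For mRNA at 72 h, 293 genes were called (3 up, 290 down), against 613 when both library types were fitted together, 185 with RLE size factors, 505 without a count minimum, and 2416 with GC correction, of which 1017 rose and 1399 fell. For translational efficiency at 72 h, 78 became 136 with limma voom, 221 with DESeq2, 170 with RLE, 260 without a count minimum and 528 with GC correction (419 up, 109 down). For footprints at 72 h, 4 became 0 in the joint fit and 7 with GC correction. For mRNA at 36 h, 2 became 0 in the joint fit, with DESeq2, with RLE and with GC correction, and for translational efficiency at 36 h DESeq2 called 1. The causes were not tested. Without each library in turn, the counts ran from 0 to 72 (footprints, 36 h), 0 to 218 (mRNA, 36 h), 0 to 474 (translational efficiency, 36 h), 1 to 41 (footprints, 72 h), 5 to 2828 (mRNA, 72 h) and 1 to 1065 (translational efficiency, 72 h). The highest values came without dCas9 d at 36 h and, at 72 h, without Cas9 f for footprints and without mRNA dCas9 b for the others. A lone library was then assumed to vary like its counterpart.

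At 72 h Cas9 and dCas9 libraries of the same letter share only the letter, with correlations of deviations of 0.0123 (footprints) and -0.139 (mRNA). With the replicate block 7 genes were called in footprints, 725 in mRNA and 88 in translational efficiency at 72 h, and 7 and 3146 in footprints and mRNA with the replicate block and GC correction. At 36 h, where a shared letter was taken as a shared lysate, the replicate block gave 0 calls in translational efficiency, as without it. Crossed mRNA pairs, tried after seeing the data, gave 829 for mRNA and 249 for translational efficiency.

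The highest over the lowest MCM2 to MCM7 density at 72 h was 2.87 in footprints without division by length. The transcript of MCM3 kept at 72 h is not listed at 36 h, so that alternative gave no value. Using its 36 h transcript at 72 h, a choice made after seeing the data, moved the MCM3 share by at most 0.636 percentage points. Footprint depth at 36 h limits GMNN and MCM10 most.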
